A study of Saccharomyces cerevisiae with 16 samples.

Results

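The strains labelled fcp1-mut-tag-flag and fcp1-trunc-1:713-tag-flag, called fcp1-mut and 1:713 here, were set as 1 group against the reference RNA hybridised on the same arrays. They were chosen by their labels, as the strain whose FCP1 allele is named only as mut and the strain with the longest of the 4 named truncations. They account for 4 of the 16 arrays of the series, 2 per strain. The fcp1-mut label does not give the change or the length of the allele, so whether it is longer than 1:713 is not known here. Both alleles carry a FLAG tag, as do the FCP1 alleles of the other 6 strains, and neither strain carries the cdk8-del allele. The reference was a common pool named refpool, whose genotype the sources used here do not give. The series description speaks of a comparison with wild type, of duplicate profiling and of growth in a plate reader to mid-log phase, and it names no drug or stress.

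Fcp1 is the phosphatase that strips phosphates off the long repetitive tail of RNA polymerase II, which is phosphorylated as a gene is transcribed and must be cleared before the enzyme starts again. The kinases of this tail include Cdk8 of the Mediator complex, named Ssn3 in budding yeast. FCP1 is an essential gene, so its function is usually studied through point mutants and truncated alleles.

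On each array RNA of 1 strain and RNA of the pool were labelled with different dyes. Arrays with the letter a had the strain in Cy3, and arrays with the letter b had it in Cy5. Per the labels, strain RNA and pool RNA were isolated with different protocols on every array, so a difference between the protocols, between the pool's strain and the parent of these strains, or through the tag cannot be told apart here from an effect of the alleles. Over the 4 arrays the median spot signal was 365 to 824 in the strains and 348 to 974 in the pool, and the local background was 46 to 72. In the strain channel 97.7% to 98.0% of gene probes exceeded their background. Each value below is a log2 ratio of strain over pool, relative to the typical gene of its array. The error is the standard error from limma. A probe was called when its Benjamini-Hochberg adjusted p was under 0.01 and its fold was above 1.7, the limits in the series description, which does not say whether its p was adjusted. The labels name no separate cultures for a and b, and p-values here thus reflect how far arrays differ, which may be technical.

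Over all 6388 probes the arrays grouped by letter and not by allele. The correlation between the a arrays of the alleles was 0.87 and that between the b arrays was 0.81, whereas the a and b arrays of fcp1-mut correlated at 0.11 and those of 1:713 at -0.02. The dyes change with the letter. The mean over both letters, in which a dye effect of equal size cancels, was therefore used throughout. The external control RNAs had a median log2 ratio of 0.23 to 0.46 on the 4 arrays.

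In the mean of both alleles limma called 21 probes, which is 0.329% of those tested. Of these, 14 were higher than the pool (0.219%) and 7 were lower (0.11%). All 21 lay on the same side of 0 on 4 of 4 arrays. The calls were made on the mean of these arrays, so that is not separate support, here or for single genes below. At an unadjusted p under 0.05, 556 probes were higher (8.7%) and 576 lower (9.02%). Tested by itself, fcp1-mut had 15 called probes (0.235%), 8 of them higher (0.125%) and 7 lower (0.11%). Tested by itself, 1:713 had 11 called probes (0.172%), 4 of them higher (0.0626%) and 7 lower (0.11%). A fit with the replicate letter as a block called 23 probes in fcp1-mut (0.36%), 18 in 1:713 (0.282%) and the same 21 (0.329%) in the mean. Of the 21, 11 were called in each strain by itself, 3 in fcp1-mut but not in 1:713, and 7 in neither strain by itself. BIO3 was called in fcp1-mut and not in the mean.

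The balance of rises and falls depended on the scaling. Median centring called 16 probes in the mean (9 higher, 7 lower) and 12 in fcp1-mut (5 higher, 7 lower), and in the mean AI3, HSP12, AIM33, BIO5 and YIG1 lost their calls under it. Scaling on the external control RNAs called 31 in the mean, of which 2 were higher (NCE103 and PYC1) and 29 lower. It called 48 in fcp1-mut, 1 of them higher and 47 lower, and 24 in 1:713, of which 3 were higher and 21 lower. That scaling put the median of all probes at -0.34, so a mean ratio between 0 and about that size changes sign under it, and values here are relative to the typical gene.

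The largest change was a loss of MET17 signal. MET17 (YLR303W, chromosome XII) encodes the enzyme that makes homocysteine from O-acetylhomoserine and sulfide, and its deletion is a common auxotrophic marker of laboratory strains. Its log2 ratio was -4.58 and -4.69 on the fcp1-mut arrays and -4.51 and -4.70 on the 1:713 arrays. The mean was -4.62 ± 0.075 (SE, n = 4 arrays), which is 24.6-fold lower than the pool (adjusted p = 4.4e-11). With plain background subtraction the mean was -5.42. The signal above background was 45.2, 111.8, 45.4 and 111.6 in the strains, against 5740, 2592, 5306 and 1809 in the pool, above background on 4 of 4 arrays in both channels. The nearest measured neighbours, YLR302C and ACO1, stood at -0.02 and -0.09 and were not called. No other member of the methionine and sulfate assimilation group was called. Of its 32 members, MET17 included, 8 were lower and 2 higher at an unadjusted p under 0.05, against 9.02% and 8.7% of all probes.

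PHO84 (YML123C, chromosome XIII) encodes the high-affinity phosphate transporter of the plasma membrane and is a target of the phosphate starvation regulator Pho4. It stood at -1.98 and -1.84 in fcp1-mut and at -1.58 and -1.44 in 1:713. Its mean was -1.71 ± 0.047, or 3.27-fold lower (adjusted p = 2.3e-09). The fcp1-mut arrays lay below both 1:713 arrays. Among the 20 measured members of the phosphate group PHO84 was the 1 that was called, and the median of the group was -0.09, against -0.002 for all probes. At an unadjusted p under 0.05, 6 of the 20, PHO84 included, were lower and 0 higher, against 9.02% and 8.7% of all probes. SPL2, which encodes an inhibitor of low-affinity phosphate uptake, had an adjusted p of 9.0e-07 at -0.66 and fell short of the fold limit. VTC3, of the polyphosphate polymerase, was at -0.46 with an adjusted p of 0.0054.

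ASP3-3 (YLR158C, chromosome XII) is one of several near-identical genes for the cell wall asparaginase, which frees ammonium from asparagine outside the cell. Its log2 ratios were tight, at -1.75 and -1.71 in fcp1-mut and -1.70 and -1.63 in 1:713, with a mean of -1.70 ± 0.045 (adjusted p = 2.3e-09). Which of the copies the probe read is uncertain, because they share most of their sequence. YLR161W, which lies beside another copy, ASP3-4, in the RefSeq annotation of assembly R64, stood at -0.70 (adjusted p = 1.5e-06) and missed the fold limit. ASN1 and ASN2, the asparagine synthetases, and ASP1, the asparaginase inside the cell, were at -0.004, -0.02 and 0.11, not called.

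Among the fallen probes 3 carried no gene name here. Their means were -1.65 ± 0.039, -1.57 ± 0.044 and -1.51 ± 0.039, and each was lower on 4 of 4 arrays. They resembled ASP3-3 across the strains. In 1:594, where ASP3-3 stood at -0.46, they stood at -0.51, -0.43 and -0.45, and in the other strains all 4 probes were at -1.31 or below. YLR297W (chromosome XII), a gene without an assigned role, was the last of the 7 that fell. It stood at -1.09 and -0.97 in fcp1-mut and at -1.17 and -0.95 in 1:713, with a mean of -1.04 ± 0.075 (adjusted p = 1.5e-05).

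**Figure D1:**
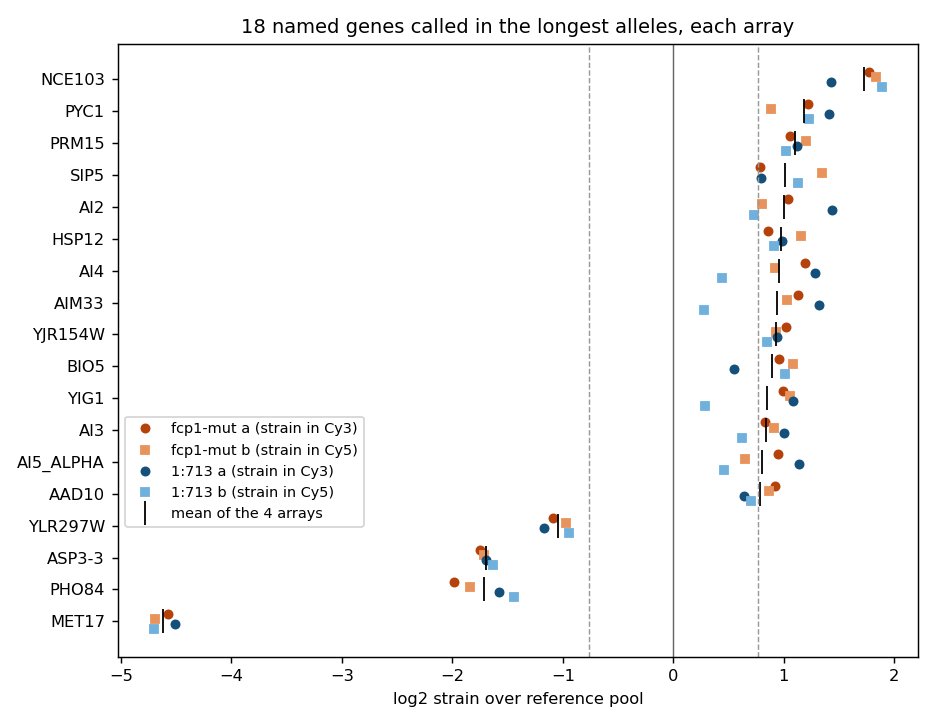
Log2 ratio of strain over reference pool (x axis) for the 18 named genes called in the mean of fcp1-mut and 1:713 (y axis). Circles are arrays with the strain in Cy3 and squares arrays with it in Cy5, black bars are means of the 4 arrays, and dashed lines mark the 1.7-fold limit. For every gene all 4 arrays lie on the same side of 0, which is not separate support as the calls were made on their mean. MET17 stands apart near -4.62, and YIG1 and AIM33 have 1 low array, 1:713 b.

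The largest rise belonged to NCE103 (YNL036W, chromosome XIV), the carbonic anhydrase that turns carbon dioxide into bicarbonate. It stood at 1.77 and 1.83 in fcp1-mut and at 1.43 and 1.89 in 1:713, with a mean of 1.73 ± 0.077, or 3.32-fold higher (adjusted p = 2.5e-07). All 4 arrays were far above 0 and the alleles overlapped. PYC1 (YGL062W, chromosome VII) encodes pyruvate carboxylase, which fixes bicarbonate with the help of biotin. It stood at 1.22 and 0.88 in fcp1-mut and at 1.41 and 1.23 in 1:713, with a mean of 1.19 ± 0.075 (2.28-fold, adjusted p = 4.2e-06). Its isozyme PYC2 stood at 0.05 and was not called.

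These were the 2 called members of a group of 8 measured genes for carbonic anhydrase and the enzymes that use bicarbonate. Of all probes 0.219% were called higher. The median of the group was 0.30, and 6 of the 8 were higher at an unadjusted p under 0.05, against 8.7% of all probes. ACC1, the acetyl-CoA carboxylase, reached 0.63 (adjusted p = 0.0015), and CPA1, a subunit of carbamoyl phosphate synthetase, 0.33 (adjusted p = 0.0030). Neither passed the fold limit.

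Biotin genes lay on the same side. BIO5 (YNR056C, chromosome XIV), which encodes the transporter of a biotin precursor, was the 1 of 6 measured members of the biotin group to be called. It stood at 0.95 and 1.08 in fcp1-mut and at 0.55 and 1.01 in 1:713, with a mean of 0.90 ± 0.12 (1.86-fold, adjusted p = 0.0017). The call was lost without fcp1-mut a (0.93, adjusted p = 0.014), fcp1-mut b (0.87, adjusted p = 0.020) or 1:713 b (0.78, adjusted p = 0.019). Its neighbours BIO4 and BIO3, for the next enzymes of biotin synthesis, stood at 0.71 (adjusted p = 0.0020) and 0.75 (adjusted p = 0.00017), just below the fold limit of 0.77 on the log2 scale. BIO2, biotin synthase, was at 0.45, VHT1, the biotin transporter, at 0.46 and BPL1, the ligase that attaches biotin to the carboxylases, at 0.37. All 6 members were higher at an unadjusted p under 0.05, against 8.7% of all probes, and the median of the group was 0.59.

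PRM15 (YMR278W, chromosome XIII) encodes a phosphoribomutase of nucleoside breakdown, and it is the gene next to FCP1 in the R64 annotation. It stood at 1.06 and 1.20 in fcp1-mut and at 1.12 and 1.02 in 1:713, with a mean of 1.10 ± 0.052 (2.14-fold, adjusted p = 4.6e-07). FCP1 itself (YMR277W) stood at -0.26 (adjusted p = 0.20) and was lower on 4 of 4 arrays. It was at -0.10 and -0.30 in fcp1-mut and at -0.12 and -0.50 in 1:713. The limma fit blocked on the letter gave FCP1 an adjusted p of 0.00058, and the fall stayed under the fold limit. DSK2, on the other side of FCP1, was at 0.11 and CAT8, beyond PRM15, at 0.02, and neither was called. PRM15 was the only called member of the 10 measured genes of nucleoside breakdown and ribose metabolism, whose other members lay between -0.12 and 0.15. It was higher than the pool in all 8 strains, between 0.73 in 1:609 and 1.15 in 1:666 with cdk8-del. All 8 strains carry the tag on FCP1, so the allele, the tag and its cassette cannot be told apart for this gene.

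A pair of neighbours on chromosome X rose together. YJR154W, a gene without an assigned role, stood at 1.02 and 0.93 in fcp1-mut and at 0.94 and 0.85 in 1:713, with a mean of 0.93 ± 0.051 (adjusted p = 1.4e-06). AAD10 (YJR155W), which encodes a putative aryl-alcohol dehydrogenase, stood at 0.92 and 0.87 in fcp1-mut and at 0.64 and 0.71 in 1:713, with a mean of 0.78 ± 0.045 (adjusted p = 1.9e-06). The genes on either side, PGU1 and THI11, were at 0.10 and -0.11, not called. Of the aryl-alcohol dehydrogenase family AAD10 was the 1 of 7 called. AAD6 reached 0.40 (adjusted p = 0.00024), and since members of this family are close copies, their probes may share signal.

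HSP12 (YFL014W, chromosome VI) encodes a small membrane-protecting heat shock protein and is a classic target of the stress factors Msn2 and Msn4. It stood at 0.86 and 1.16 in fcp1-mut and at 0.98 and 0.91 in 1:713, with a mean of 0.98 ± 0.13 (1.97-fold, adjusted p = 0.0018). Its call was lost without any 1 of the 4 arrays, the mean staying between 0.90 and 1.05 and the adjusted p between 0.011 and 0.023. Of the 40 measured genes of the Msn2 and Msn4 group it was the 1 called, and the group's median was 0.01. HSP26, another small heat shock protein gene, was at -0.41 (adjusted p = 0.10).

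SIP5 (YMR140W, chromosome XIII), whose product binds the Snf1 kinase and its phosphatase regulator Reg1, stood at 0.78 and 1.34 in fcp1-mut and at 0.80 and 1.13 in 1:713, with a mean of 1.01 ± 0.12 (adjusted p = 0.00067). The b arrays lay above the a arrays in both strains. YIG1, whose product binds the glycerol-3-phosphatase Gpp1, and AIM33, a gene without an assigned role, had 1 low array each. YIG1 stood at 0.99 and 1.05 in fcp1-mut and at 1.08 and 0.29 in 1:713, with a mean of 0.85 ± 0.13 (adjusted p = 0.0041). AIM33 stood at 1.13 and 1.03 in fcp1-mut and at 1.32 and 0.28 in 1:713, with a mean of 0.94 ± 0.17 (adjusted p = 0.0087). In both genes 1:713 b was the low array. Without fcp1-mut a, fcp1-mut b or 1:713 a the calls were lost. YIG1 then stood at 0.87, 0.84 and 0.65, and AIM33 at 0.91, 0.96 and 0.68, with adjusted p-values of 0.029 to 0.066.

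**Figure D2:**
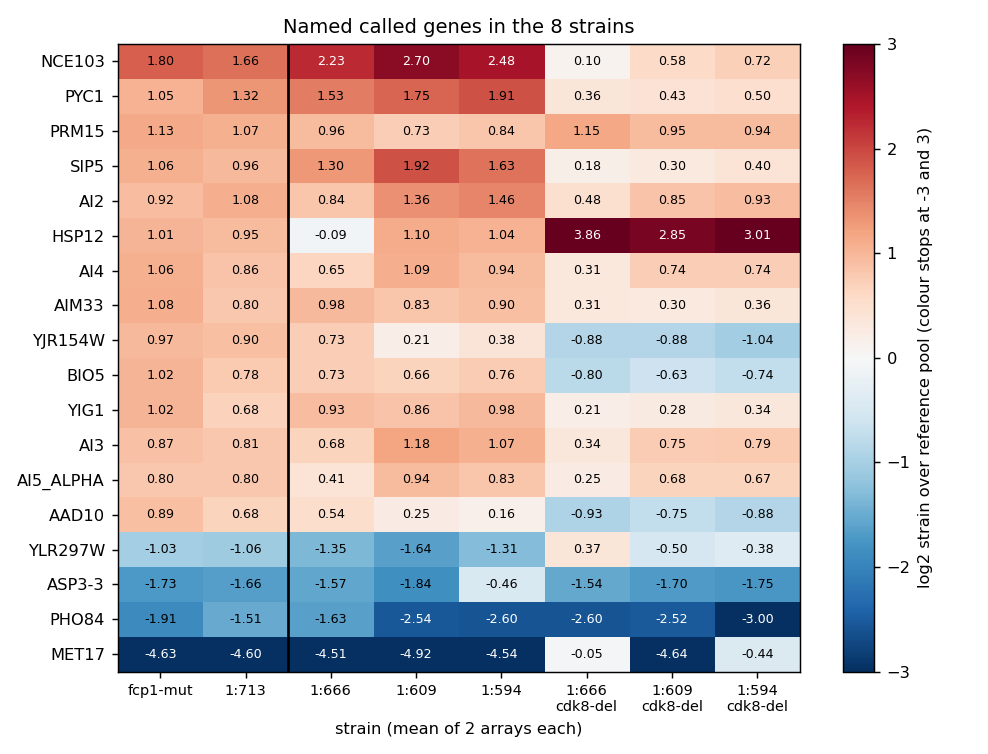
Mean log2 ratio over the reference pool (colour and number in each cell, 2 arrays per strain) of the 18 named called genes (rows) in the 8 strains (columns), with fcp1-mut and 1:713 left of the black line. Of all 21 called probes 16 keep their sign in all strains, PHO84 and PRM15 among them. MET17 is at -0.05 in 1:666 cdk8-del, -4.64 in 1:609 cdk8-del and -0.44 in 1:594 cdk8-del, and BIO5, YJR154W and AAD10 are below 0 in the 3 cdk8-del strains.

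The other called genes lie on the mitochondrial chromosome. Its COX1 gene, for a subunit of cytochrome oxidase, holds introns that encode proteins of their own, maturases and endonucleases named AI1 to AI5. AI2 stood at 1.04 and 0.80 in fcp1-mut and at 1.44 and 0.73 in 1:713, with a mean of 1.0 ± 0.13 (adjusted p = 0.0017). AI3 averaged 0.84 ± 0.10 (adjusted p = 0.00068), AI4 0.96 ± 0.14 (adjusted p = 0.0029) and AI5_ALPHA 0.80 ± 0.13 (adjusted p = 0.0042). Each was higher on 4 of 4 arrays, and 1:713 b was the lowest array for each. These reading frames lie within 1 gene, so they are not separate results.

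The mitochondrial genome was looked at as a whole after these values were seen. Of its 19 probes 4 were called higher (21.1%, against 0.219% of all probes), 18 were above 0, and 14 were higher at an unadjusted p under 0.05. COX1 itself stood at 0.22 and COB, COX2 and COX3 at 0.07, 0.007 and 0.14, none called. COB and Q0255, both among the 19 probes, exceeded their background on 0 of 4 arrays in either channel. COX3 exceeded it on 2 of 4 arrays in the pool. The strain signal above background was 3.7 to 11.7 for COB and 14 to 22.4 for COX3. At such signal a ratio near 0 does not show whether the gene changed. The median over the 19 probes was 0.46 and 0.29 on the fcp1-mut arrays and 0.59 and 0.03 on the 1:713 arrays, so the shift was close to absent on 1:713 b. Median log2 ratios of the 16 nuclear chromosomes lay between -0.02 and 0.01. In 3 of the 4 called reading frames the call needed each of 3 arrays. Without fcp1-mut a, AI2 stood at 0.94, AI4 at 0.89 and AI5_ALPHA at 0.73, without fcp1-mut b they stood at 1.06, 1.03 and 0.87, and without 1:713 a at 0.82, 0.75 and 0.63, with adjusted p-values between 0.012 and 0.041. Of the 4 arrays left out in turn, 1:713 a was the one whose loss ended the call of AI3, which then stood at 0.74 and so under the fold limit.

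With the fold limit dropped, higher probes tended to belong to longer genes than lower ones did. Without that limit 153 probes had an adjusted p under 0.01 (2.4% of those tested), the 21 called ones among them. Of the 153, 79 were higher (1.24%) and 74 lower (1.16%), all in the same direction on 4 of 4 arrays. They were picked by a test of the mean of these arrays, so the shared direction is not separate support. Gene length, taken from the R64 annotation after these genes were seen, was known for 68 of the 73 nuclear probes that were higher and 61 of the 74 that were lower. The median length was 2507 base pairs for the higher and 897 for the lower ones, against 1239 for the 5305 nuclear probes with a length. Genes over 3000 base pairs made up 28 of the 68 higher (41.2%), 0 of the 61 lower and 464 of all 5305 (8.75%). Among the higher long genes were TRA1, the largest subunit of the SAGA and NuA4 complexes (0.47), TOM1, a ubiquitin ligase (0.38), PRP8, of the spliceosome (0.31), and CHC1, clathrin heavy chain (0.29). The 464 long genes had medians of 0.11 and 0.09 on the fcp1-mut arrays and 0.09 and 0.10 on the 1:713 arrays, whereas the 2024 genes under 1000 base pairs had medians of -0.04, -0.03, -0.04 and -0.03 on the same arrays. The medians of the long genes were also above 0 in each of the other 6 strains, between 0.05 in 1:609 and 0.12 in 1:666 with cdk8-del. RNA isolation differed between strain and pool on every array, and its part in this was not tested.

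Gene groups gave few further calls. Of 44 groups written from general knowledge of yeast, with earlier results of these data known, 9 held a called gene and the rest held none. Holding a called gene is thus no test of a group. MET17 counted for both the marker group and the methionine group. The oxidative stress group of the factor Yap1 had 0 called members and a median of -0.04. Of its 34 members 9 were lower and 1 higher at an unadjusted p under 0.05, against 9.02% and 8.7% of all probes. Its largest values were those of GPX2, a glutathione peroxidase, at -0.67 (adjusted p = 0.0010), and YHB1, the flavohemoglobin that detoxifies nitric oxide, at -0.55 (adjusted p = 0.00014), both lower on 4 of 4 arrays and under the fold limit. The superoxide dismutase gene SOD1 was at -0.24 (adjusted p = 0.043), and SOD2 at -0.17 (adjusted p = 0.090).

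Several larger groups had 0 called members. Their counts of higher or lower genes are at an unadjusted p under 0.05, which 8.7% of all probes passed as higher and 9.02% as lower. The respiratory chain and ATP synthase group had a median of 0.14 and 11 of 35 higher, and within it COX5B, the subunit form used at low oxygen, ran the other way at -0.49 (adjusted p = 0.0018). Ribosome biogenesis genes had a median of 0.09 and 16 of 60 higher, such as UTP20 at 0.37 (adjusted p = 0.0055). Chaperones under Hsf1 had a median of -0.13 and 9 of 25 lower, with 23 of 25 below 0, among them HSP78 of the mitochondrial matrix at -0.43 (adjusted p = 0.0075). Amino acid synthesis genes under Gcn4 had a median of -0.08 and 14 of 42 lower, with ARG3 at -0.52 (adjusted p = 4.5e-05) and BAT1 at -0.38 (adjusted p = 0.00022). Proteasome subunits had a median of -0.08 and 7 of 36 lower. Ribosomal proteins had a median of 0.005, with 0 of 67 higher and 3 lower. The positive medians of these groups, and of the long genes, are smaller in size than the shift of the median of all probes under external control scaling (to -0.34).

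**Figure D3:**
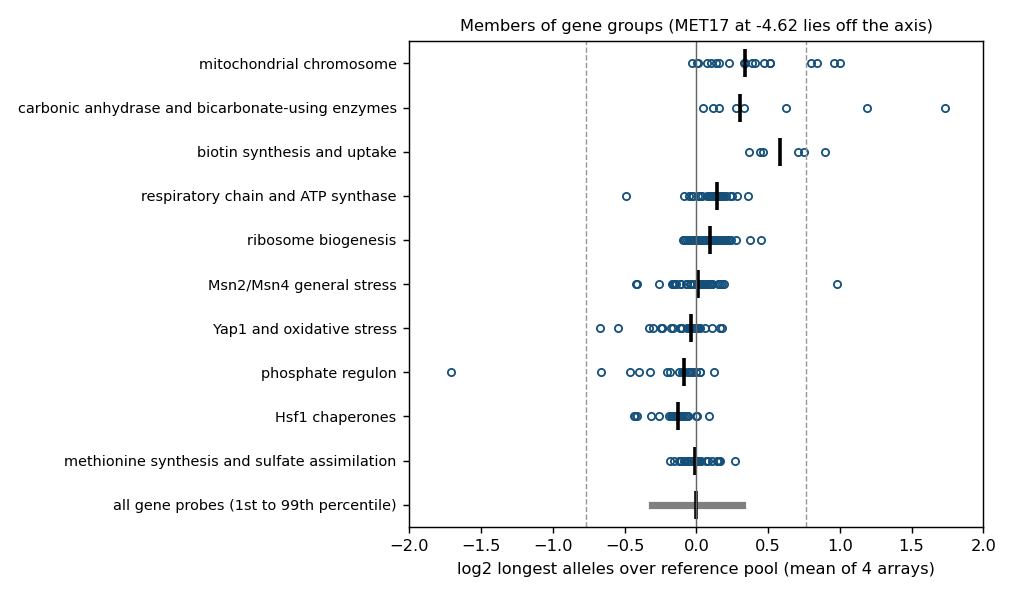
Log2 ratio of the mean of fcp1-mut and 1:713 over the reference pool (x axis) for each member (open circles) of selected groups (y axis), with black bars for group medians, a grey bar for the 1st to 99th percentile of all probes, and dashed lines at the 1.7-fold limit. The biotin group, with a median of 0.59, lies wholly above 0, and single members stand apart in the phosphate group (PHO84, -1.71) and the general stress group (HSP12, 0.98).

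The genes altered by the genotypes and the usual strain markers were checked. FCP1 was not called in either strain. SSN3, which encodes Cdk8, stood at 0.05, and its kinase module partners SSN8, SRB8 and SSN2 at 0.006, 0.03 and 0.006, all without a call. Among the marker genes HIS3 was at -0.07, LEU2 at 0.08, URA3 at -0.02, LYS2 at 0.09 and TRP1 at -0.002, so that MET17 was the only called one. The signal of URA3 above background was 22.4 to 31.7 in the strains and 21.2 to 48.8 in the pool. That of LEU2 was 28.3 to 86.2 in the strains and 21.1 to 80.1 in the pool. These signals lie below the median spot of each array, so ratios near 0 for URA3 and LEU2 do not show equal levels. Of the mating type genes, 0 of the alpha-specific, a-specific and haploid-specific markers were called, with medians of -0.03, -0.009 and -0.12. As 0.329% of all probes were called, a count of 0 in groups this small tells little. At an unadjusted p under 0.05, 2 of the 7 haploid-specific markers were lower and 0 higher, against 9.02% and 8.7% of all probes. Of the 4 alpha-specific and 7 a-specific markers 0 passed that limit.

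The alleles were then compared with each other, a contrast in which the pool cancels. Limma called 0 probes between fcp1-mut and 1:713 (0% of those tested). At an unadjusted p under 0.05, 27 were higher in fcp1-mut (0.423%) and 23 lower (0.36%), and the smallest adjusted p was 1. A fit blocked on the letter gave a smallest adjusted p of 0.359, and there 443 probes had an unadjusted p under 0.05. The median size of the difference was 0.05 on the log2 scale, the 99th percentile 0.27 and the largest 0.46. Between the a arrays 1 probe differed by more than the fold limit, between the b arrays 3 did, and none did in both. Intervals and unadjusted p-values of single genes, here and below, come from the fit without the block, which ignores the pairing of arrays by letter. There the 95% interval of the difference lay inside the fold limit for 6103 probes, or 95.5%. It did so for 17 of the 21 called probes, the exceptions being YIG1, AIM33, BIO5 and AI4. For the 17 a difference of 1.7 fold or more lay outside the interval.

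The largest difference among the called genes was that of PHO84, which was lower in fcp1-mut by 0.40 on the log2 scale (difference -0.40, 95% interval -0.61 to -0.19, unadjusted p = 0.0015). Both fcp1-mut arrays lay below both 1:713 arrays, but the difference did not pass the adjustment over all probes (adjusted p = 0.36 in limma with the replicate letter as a block). PHO84 was also picked by its moderated t on these arrays, so that order is not separate support. With 2 arrays per strain such an order can easily arise, and its share over all probes was not counted. AAD10 was 0.22 higher in fcp1-mut (interval 0.02 to 0.42, unadjusted p = 0.032), with both fcp1-mut arrays above both 1:713 arrays, and it did not pass the adjustment either. NCE103 differed by 0.14 (interval -0.20 to 0.48) and PYC1 by -0.27 (interval -0.60 to 0.06). Among genes not called against the pool, PRM7, whose transcript responds to pheromone, had the smallest unadjusted p. It stood at 0.41 and 0.44 in fcp1-mut and at 0.02 and -0.08 in 1:713, a difference of 0.46 (interval 0.25 to 0.67, unadjusted p = 0.00057). Its other probe gave a difference of 0.38 (unadjusted p = 0.042).

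Further genes had smaller differences. ATP7, a subunit of the ATP synthase, was at 0.25 and 0.27 in fcp1-mut and at 0.02 and 0.04 in 1:713. TPO3, a polyamine exporter, differed by 0.32 (interval 0.12 to 0.52), YHR054C by 0.25 and YEL073C by 0.22, the last 2 being genes without an assigned role. On the lower side were VTI1, a vesicle fusion protein, at -0.22 (interval -0.36 to -0.08), YIR043C at -0.31, SAR1, a GTPase of vesicle budding, at -0.19, and GLN1, glutamine synthetase, at -0.23. In each of these 8 genes both fcp1-mut arrays lay on 1 side of both 1:713 arrays. The genes were picked by their moderated t on these arrays, so that order is not separate support. None was called, and in limma with the replicate letter as a block their adjusted p-values were 0.36 to 0.66. The other probe of YIR043C gave -0.16.

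**Figure D4:**
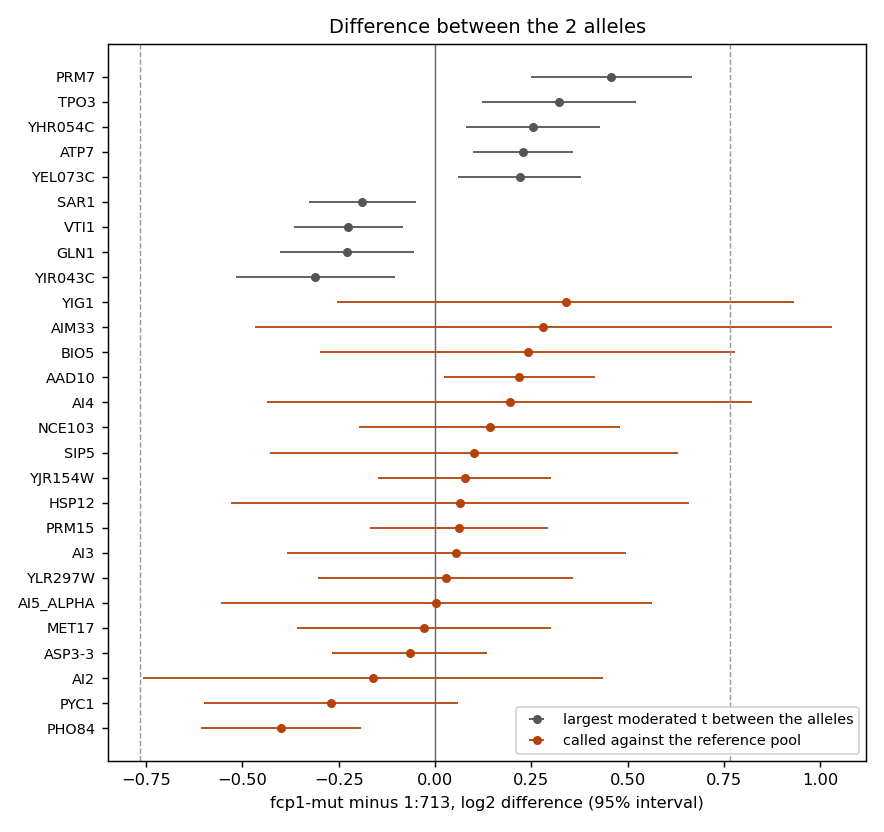
Difference fcp1-mut minus 1:713 on the log2 scale with its 95% interval (x axis) for the genes with the largest moderated t between the alleles (grey) and the other named genes called against the reference pool (orange, PHO84 included), with dashed lines at the 1.7-fold limit. PHO84 at -0.40 and PRM7 at 0.46 lie farthest from 0, and AIM33 has the widest interval.

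**Figure D5:**
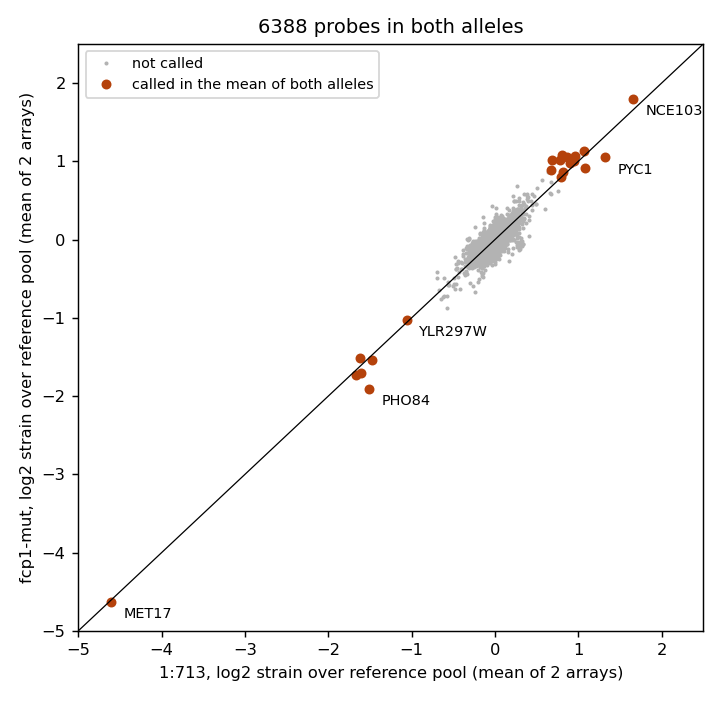
Log2 ratio over the reference pool in fcp1-mut (y axis) and 1:713 (x axis), each the mean of 2 arrays, for 6388 probes, with the 21 called in the mean of both alleles in orange and a line where the alleles are equal. Both axes share the pool and the dye letters, so the spread along the line is not independent support. The called probes lie near the line and PHO84 lies below it.

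Set against the next shorter truncation, 1:666, the mean of fcp1-mut and 1:713 was higher for 9 probes (0.141%) and lower for 1 (0.0157%), which makes 10 called (0.157%), while a fit blocked on the replicate letter called 20 (0.313%). YRO2, a membrane protein of the Hsp30 family, was at -0.18 and 0.22 in fcp1-mut and -0.32 and -0.30 in 1:713, against -2.52 and -2.12 in 1:666. The difference was 2.17 ± 0.19 (adjusted p = 0.00056). CHA1, the serine and threonine deaminase, was 1.55 ± 0.090 higher (adjusted p = 2.9e-05), YGP1, a secreted glycoprotein of starving cells, 1.63 ± 0.17 higher (adjusted p = 0.0012), GCV2, of the glycine cleavage complex, 0.92 ± 0.13 higher and PRM7 0.94 ± 0.082 higher. PRM5, a target of the cell wall integrity pathway, was lower, at -0.28 and -0.06 in fcp1-mut and -0.12 and 0.12 in 1:713 against 0.72 and 0.75 in 1:666 (difference -0.82 ± 0.089, adjusted p = 0.0015). With 0.157% and 0.313% of all probes called in these fits, few of any 21 probes would be among them. Of the 21 probes called against the pool, 0 were among these 10, and 1 was among the 20 of the blocked fit. That 1 was HSP12, at a difference of 1.07 (adjusted p = 0.046, or 0.0012 with the block). FCP1 stood at a difference of 0.01, not called. These calls rest on both 1:666 arrays: without 1:666 a 1 probe was called and without 1:666 b 5 were.

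Against the mean of 1:666, 1:609 and 1:594 limma called 68 probes (1.06%), 53 higher (0.83%) and 15 lower (0.235%). The alpha-factor gene MF(ALPHA)2 was higher by 2.92 ± 0.14, YRO2 by 2.64 ± 0.15, its relative MRH1 by 2.23 ± 0.15, YGP1 by 2.17 ± 0.13 and CHA1 by 2.03 ± 0.067. On the lower side SER3, of serine synthesis, was at -2.00 ± 0.17, LYS2 at -2.00 ± 0.066, the cell wall gene HPF1 at -1.43 ± 0.11, the sporulation gene SSP2 at -1.27 ± 0.13 and GAS2, a glucan-remodelling enzyme, at -1.18 ± 0.089. LYS2 averaged 0.09 in the mean of fcp1-mut and 1:713, against 0.12 in 1:666, 3.40 in 1:609 and 2.73 in 1:594. The 1:609 and 1:594 strains thus also differ from fcp1-mut and 1:713 at a marker gene, and for them that difference and allele length cannot be told apart. FCP1 differed by 1.92 ± 0.13, and where its probe lies relative to the truncations is not known here. Of the 21 probes called against the pool, 0 were called in this contrast, against 1.06% of all probes, so a count of 0 among 21 tells little. Several had an adjusted p under 0.01 and missed only the fold limit. ASP3-3 differed by -0.41 (adjusted p = 0.00066), YJR154W by 0.50 (adjusted p = 0.00041) and AAD10 by 0.47 (adjusted p = 0.00025). NCE103 differed by -0.74 ± 0.099 (adjusted p = 0.00044) and PYC1 by -0.54 ± 0.096 (adjusted p = 0.0022), both under the fold limit, and PHO84 was 0.55 ± 0.061 higher (adjusted p = 0.00013).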

How the data were processed

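The deposited scanner files give, per the file headers, the mean intensity of each spot and the median of its local background in both channels, and the authors' deposited matrix holds log2 ratios, which served as an alternative. No source used here tells how the authors subtracted background. Of 6388 gene probes with 2 spots each, 5326 had a single symbol, and 5324 were found in RefSeq's table for assembly R64; 1062 have no name here. Computed here: normexp background correction (offset 50), lowess within each array over the gene spots (span 0.4, 3 iterations), strain over pool on every array, and limma 3.58.1 in R 4.3.3 with 1 mean per strain over all 16 arrays (8 residual and 2.57 prior degrees of freedom, two-sided tests). Figures were drawn with matplotlib 3.10.9 under Python 3.11.15. The pool is a common reference and cancels in the comparisons between strains. In the ratios over the pool any trait of the pool itself enters, and the p-values do not cover it.

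Same-letter arrays deviated together in all 28 pairs of strains (correlations 0.60 to 0.91), so the letters pair the arrays and a fit with the letter as a block was run. The members, gene groups and tests were chosen with earlier results of these data known. Named genes were the called ones (up to 15 each way), up to 5 each way per further comparison, up to 3 called members and the top member of each group, genes of the genotypes and markers, and genes near the limits. The pipeline was tested on simulated data. The number of arrays limits precision.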

Additional observations from a re-analysis of the deposited data

Results flagged for a closer look

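Among the 18 named genes called against the pool, 1 had an array far from the other 3. In YIG1 the array 1:713 b stood at 0.29 while the others lay between 0.99 and 1.08, and that gap was 0.886 of the range, above the 95% limit for 4 samples. Chance flags about 1 gene in 20.

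The mean of fcp1-mut and 1:713 differed from 1:666 by a test of the difference itself. Genes with such a difference were YRO2 (2.17), YGP1 (1.63), CHA1 (1.55), PRM7 (0.94), GCV2 (0.92) and PRM5 (-0.82). The same mean differed from that of the 3 truncations with CDK8 that are shorter than 1:713. Here the genes were MF(ALPHA)2 (2.92), YRO2 (2.64), MRH1 (2.23), YGP1 (2.17), CHA1 (2.03), SER3 (-2.00), LYS2 (-2.00), HPF1 (-1.43), SSP2 (-1.27) and GAS2 (-1.18). The values are log2 differences, positive where fcp1-mut and 1:713 were higher.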

How the results depend on the processing

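No called result turned its direction under the 18 alternatives. Ratios near 0 did: on the external control scale SSN3 stood at -0.29, SRB8 at -0.31 and SSN2 and SSN8 at -0.33, against 0.05, 0.03, 0.006 and 0.006, and SSN2, SSN8 and SSN3 also fell below 0 under other alternatives. In the mean of fcp1-mut and 1:713 the 6 genes MET17, PHO84, ASP3-3, YLR297W, PYC1 and NCE103 kept their calls under all 16 alternatives that bear on it. The count of 21 was 13 in a fit of the 4 arrays with 1 mean per strain, where fewer arrays estimate the spread, and 15 to 20 without each array in turn. Scaled on the external control spots it was 31 (2 higher and 29 lower, against 14 and 7), 9 of them shared, as that scaling moved the median of all probes to -0.34. Under it every rise but those of NCE103 and PYC1 lost its call, between 0.76 for PRM15 and 0.45 for AAD10.

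The 15 calls in fcp1-mut were 23 with the replicate letter as a block, 6 in the fit of the 4 arrays, 48 on the external control scale, 25 with the deposited ratios and 23 at an unadjusted p. The 11 calls in 1:713 were 18, 6, 24, 18 and 19 under the same alternatives, and 18 with plain background subtraction. The 10 calls against 1:666 were 20 with the block, 1 under median centring, 21 with plain subtraction, 21 with the deposited ratios, 20 at an unadjusted p, and 1 to 9 without each array in turn. The 68 calls against the 3 shorter truncations were 132 with plain subtraction. The block changed no call in the mean of both alleles over the pool. Calls between the alleles numbered 0 under every alternative run. The cause of these shifts was not tested. Signal over background limits the MET17 ratio, since its strain signal of 45.2 to 111.8 lies below the median spot of its array.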
